A study of Mus musculus with 6 samples.

Results

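The CC chemokine ligand genes *Ccl2*, *Ccl3*, *Ccl4*, *Ccl5*, *Ccl6*, *Ccl7*, *Ccl9*, *Ccl12*, *Ccl17* and *Ccl22* were followed in peritoneal neutrophils that lack cyclic GMP–AMP synthase (cGAS), the cytosolic sensor of double-stranded DNA. They were taken from the table by gene symbol, as a set chosen with earlier results of these data known, and all 10 were found among the 38739 genes of the expression table. RNA had been sequenced from 3 untreated samples, held in culture medium for 2 h, and from 3 samples given lipopolysaccharide (LPS) of *E. coli* 026:B6 for the same 2 h. All 6 samples came from cGAS knockout mice with a background written C57B/L6 in the labels and C57BL/6J in the methods of the study, which are male and 8 weeks old in the methods of the study, and no wild-type sample was analysed here. The LPS dose is 500 ng/mL in the sample labels and 100 ng/mL in the RNA sequencing methods. The cells had been drawn into the peritoneum with thioglycolate, and the methods name no sorting step. The labels do not say whether the samples of a group came from separate mice, so that the p values measure only the spread between these samples. Values are given as scaled TPM. TPM is a level per transcript length, set to a fixed total. The values were read as the mean TPM of the transcripts annotated to a gene after a common factor was applied to each sample, a reading taken from the numbers that no source used here states. Read numbers cannot be recovered from it, and the depth of each sample is unknown.

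CC chemokines are small secreted proteins with a pair of adjacent cysteines near the amino terminus, and they bind G protein-coupled receptors that steer leukocytes along a gradient. Endotoxin is sensed through TLR4 and activates NF-κB and AP-1, under which several of these genes are transcribed in macrophages and neutrophils. The monocyte-attracting ligands lie in one cluster on mouse chromosome 11, the macrophage inflammatory protein genes and their neighbours in another on the same chromosome, and the ligands of CCR4 on chromosome 8.

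*Cgas*, the targeted gene, was listed at 0.0286 to 0.307 scaled TPM in the 6 samples, with no wild-type level to set beside it. The labelled cell type was then checked against its markers. Of 14 neutrophil markers 12 were in the table, without *Ly6g* and *Retnlg*. Their summed level was 9573 to 28155 scaled TPM when untreated and 16012 to 54465 in the LPS samples, with the granule gene *Elane* at 0 in all 6. *S100a8* and *S100a9* made up most of this sum in every sample. *Cxcr2* was listed at 39.4, 120 and 100 scaled TPM when untreated and at 7.10, 23.6 and 8.69 after LPS. The LPS samples lay wholly below the untreated ones for *Cxcr2*, *Csf3r*, *Il1r2* and *Ltf*, against 9.75% of all genes, and wholly above for no neutrophil marker. The 8 B cell markers in the table, of 9, summed to 282 to 1097 when untreated and to 264 to 807 after LPS, none of them at 0 in all samples. The 14 monocyte or macrophage markers in the table, of 18 and without *Adgre1* and *Csf1r*, summed to 171 to 208 and 277 to 423. Most of this was *Cd68*, at 157 to 179 and 230 to 381. The 12 T or NK cell markers summed to 41.9 to 153 and 16.2 to 60.3. The 7 dendritic cell markers, mostly *Itgax*, summed to 15.9 to 37.5 and 36.6 to 68.6. The 5 erythroid genes summed to 21.5 to 5629 and 165 to 4651. Mast cell (5 markers), eosinophil (5, with *Prg3* and *Epx* at 0) and mesothelial or fibroblast markers (9) summed to at most 134, 6.71 and 3.02. The second sample of each group had the highest neutrophil sum and the lowest B, T or NK and dendritic cell sums of its group. Fewer cells of a type and less RNA per cell cannot be told apart in such samples. Protein-coding genes took 21.0 to 28.3% of each untreated sample's summed value and 49.7 to 58.9% after LPS, and the scaling of the samples was therefore varied.

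After LPS, *Ccl7* was the 1 gene of the 10 that passed the limits of the study, an unadjusted p under 0.01 with a log2 fold change over 2, against 1.69% of all 23049 genes tested that were called higher. It was also the 1 gene of the 10 with an adjusted p under 0.05 and a rise, a limit reached by 0.894% of all genes. None of the 10 (0) was called lower by limma, against 1.31% of all genes, and at an unadjusted p under 0.05 there were 1 lower gene (*Ccl6*, against 6.66% of all genes) and 1 higher gene (*Ccl7*, against 10.3%). The LPS samples lay wholly above the untreated ones in 2 genes (*Ccl7* and *Ccl22*), against 13.1% of all genes, and wholly below in 1 (*Ccl6*), against 9.75%. Differences were positive in 7 and negative in 3 of the 10 genes (52.9% and 47.1% of all genes), with a median log2 fold change of 0.37, whereas the median was 0.01 over all genes tested and 0.13 over the 9403 genes with a mean value of 1 or more.

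**Figure D1:**
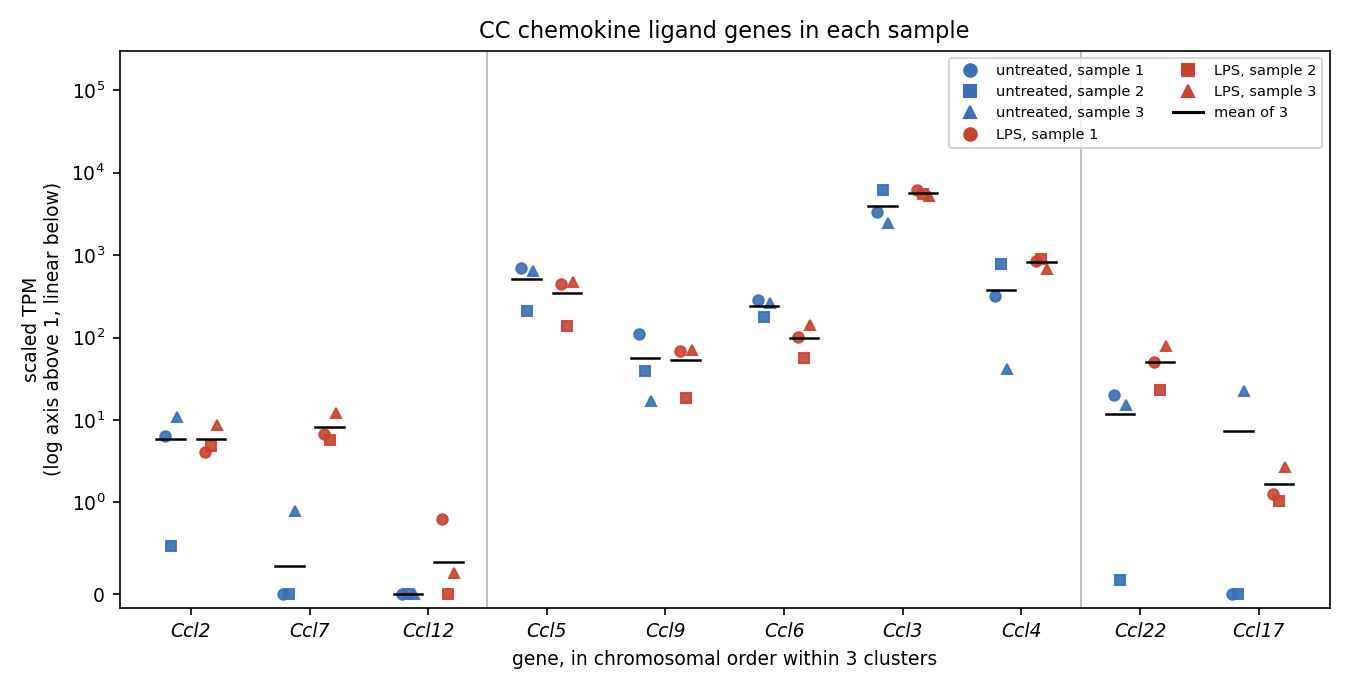
Scaled TPM (vertical axis, logarithmic above 1 and linear below) of the 10 CC chemokine ligand genes in each untreated (blue) and LPS (red) sample, with the replicate number as the marker shape, the mean of 3 as a black line and grey lines between the chromosomal clusters. *Ccl3* was at 2453 or more in all 6 samples, *Ccl7* was at 5.66 or more after LPS and at most 0.904 before, and the second samples (squares) were the lowest of their group for *Ccl5*, *Ccl6* and *Ccl22*.

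*Ccl2*, *Ccl7* and *Ccl12* encode ligands of CCR2, the receptor that brings monocytes out of the bone marrow, and *Ccl7* also binds CCR1 and CCR3. On GRCm39 they lie on the plus strand of chromosome 11 at 81926397 to 81928279 (*Ccl2*), 81936532 to 81938351 (*Ccl7*) and 81992645 to 81994466 (*Ccl12*), each with 3 exons in the canonical transcript. *Ccl7* was listed at 0, 0 and 0.904 scaled TPM when untreated and at 6.81, 5.66 and 12.2 in the LPS samples. Every LPS sample was above every untreated one. The log2 fold change on the log2(scaled TPM + 1) scale was 2.83 (standard error 0.44, adjusted p = 0.043, limma). It was called in 17 of 18 alternatives, and not with a pseudocount of 5, where the value was 1.29. *Ccl7* was called without each sample in turn, with adjusted p values of 0.058 to 0.17, so that the adjusted limit of 0.05 was not met in any fit of 5 samples. It was met in 6 of the 18 alternatives, among them the reported fit itself read at that limit.

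*Ccl2*, the next gene upstream, was listed at 6.37, 0.526 and 10.9 scaled TPM when untreated and at 4.05, 4.82 and 8.60 in the LPS samples. The groups overlapped, and the second untreated sample was the lowest of the 6. The log2 fold change of *Ccl2* was 0.36 (standard error 0.80, 95% interval -1.60 to 2.32, adjusted p = 0.82, limma), and it was -0.52 without the second untreated sample and -0.07 when the samples were scaled to the same protein-coding sum. *Ccl12* was at 0 in every untreated sample and at 0.817, 0 and 0.233 after LPS, a difference of 0.39 (standard error 0.21, adjusted p = 0.41). The summed monocyte and macrophage markers were at 171 to 423 scaled TPM, of which *Cd68* alone was 157 to 381. No other marker of that list was above 23.95 (*C1qb*) in any sample. *C1qb* passed the limits of the study as higher, with a log2 fold change of 2.62 by limma (1.69% of all genes were called higher). The LPS samples lay wholly above the untreated ones for *Cd68* and *C1qb*, against 13.1% of all genes. They lay wholly below for *Mrc1* and *Cx3cr1*, against 9.75%. The part of monocytes or macrophages in the *Ccl2*, *Ccl7* and *Ccl12* values was not tested.

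The upstream sequences of this neighbouring pair are shown because one gene was called and the other was not. Each covers 250 bases before the start of the Ensembl canonical transcript on GRCm39, chr11:81926147-81926396 for *Ccl2* and chr11:81936282-81936531 for *Ccl7*, both on the plus strand, and capitals mark the matches to any of 4 motifs searched on both strands.
*Ccl2* upstream: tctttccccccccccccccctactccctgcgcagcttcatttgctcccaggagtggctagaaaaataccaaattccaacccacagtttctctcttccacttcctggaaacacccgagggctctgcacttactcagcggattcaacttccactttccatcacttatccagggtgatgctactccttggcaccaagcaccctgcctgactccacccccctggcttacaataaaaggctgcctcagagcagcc
*Ccl7* upstream: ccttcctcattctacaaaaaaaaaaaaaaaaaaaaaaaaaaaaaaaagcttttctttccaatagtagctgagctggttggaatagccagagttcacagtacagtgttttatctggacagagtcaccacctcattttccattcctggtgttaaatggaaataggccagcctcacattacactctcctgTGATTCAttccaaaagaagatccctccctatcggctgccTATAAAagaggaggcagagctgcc
The motifs were the κB consensus, the AP-1 site TGANTCA, the interferon-stimulated response element and the TATA box TATAAA. *Ccl7* holds 1 AP-1 match, TGATTCA, at 63 to 57 bases before the start, and 1 TATA box at 24 to 19 bases, and *Ccl2* holds 0 matches in this window. Over the 21747 promoters of protein-coding genes, windows of the same length held the κB consensus in 7.62%, the AP-1 site in 6.18%, the interferon element in 3.32% and the TATA box in 11.9%. Among the 10 ligand genes the numbers were 2, 2, 0 and 3. The κB matches were in *Ccl5* and *Ccl9*, and *Ccl9* holds the other AP-1 match.

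**Figure D2:**
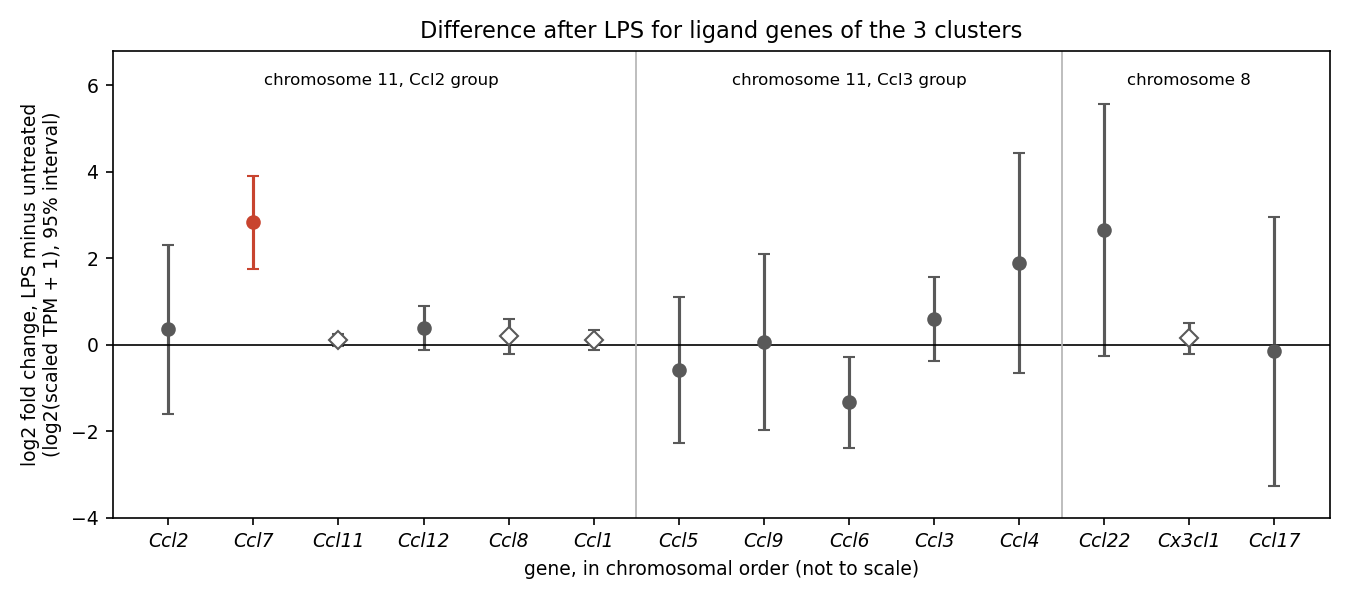
Log2 fold change after LPS with its 95% interval (vertical axis, log2(scaled TPM + 1) scale) for the ligand genes of the 3 clusters in chromosomal order, with filled circles for the 10 genes, open diamonds for their neighbours and red for genes passing an unadjusted p under 0.01 with a log2 fold change over 2. *Ccl7* is the one red point, at 2.83, while its neighbours *Ccl2* (0.36) and *Ccl11* (0.11) have intervals that include 0.

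*Ccl3* and *Ccl4* encode the macrophage inflammatory proteins, which attract monocytes and lymphocytes, and the *Ccl3* product binds CCR1. They stand side by side on chromosome 11 on opposite strands, *Ccl3* at 83538670 to 83540191 on the minus strand and *Ccl4* at 83553383 to 83555509 on the plus strand, with 1 annotated transcript each. *Ccl3* was listed at 3323, 6106 and 2453 scaled TPM when untreated and at 6075, 5446 and 5227 in the LPS samples. It ranked between the 4th and the 7th place among protein-coding genes in every sample, untreated ones included, and made up 69.8 to 83.5% of the summed value of the 10 ligand genes. The second untreated sample was above all LPS samples, and the log2 fold change of *Ccl3* was 0.60 (standard error 0.40, 95% interval -0.38 to 1.58, adjusted p = 0.52, limma). It was 0.96 without the second untreated sample and 0.31 without the third, and ran from 0.10 with equal protein-coding sums to 1.23 with equal sums over all genes. A stretch of 167 bases of the *Ccl3* transcript matches *Gm53692*, a long noncoding RNA gene on the other strand, at 95% identity or more, and whether the counting used strand is not given in the sources used here.

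*Ccl4* was listed at 316, 783 and 41.2 scaled TPM when untreated and at 854, 901 and 684 after LPS. The third untreated sample was far below the others, and the second was above the lowest LPS sample. The log2 fold change of *Ccl4* was 1.88 (standard error 1.04, 95% interval -0.66 to 4.43, adjusted p = 0.42, limma), and was 0.70 without the third untreated sample. The ratio of *Ccl3* to *Ccl4*, which no scaling of a sample can change, was 10.5, 7.80 and 59.5 when untreated and 7.11, 6.05 and 7.64 with LPS. All 3 LPS ratios were below all untreated ones, with the lowest untreated ratio (7.80) just above the highest LPS one (7.64). How many other gene pairs separate in this way was not computed, so that no reading is drawn from it. The third untreated sample also had the highest erythroid sum, 5629, against 356 and 21.5 in the other untreated samples, and the part of this in the ratio was not tested. The upstream 250 bases of both genes (chr11:83540192-83540441, minus strand, and chr11:83553133-83553382, plus strand) are shown because these were the most abundant ligand genes after LPS, and neither holds a match to the 4 motifs in this window.
*Ccl3* upstream: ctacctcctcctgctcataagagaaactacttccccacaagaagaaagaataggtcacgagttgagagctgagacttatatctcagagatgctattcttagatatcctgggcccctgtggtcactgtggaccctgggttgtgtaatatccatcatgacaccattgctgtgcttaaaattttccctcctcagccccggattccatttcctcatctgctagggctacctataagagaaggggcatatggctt
*Ccl4* upstream: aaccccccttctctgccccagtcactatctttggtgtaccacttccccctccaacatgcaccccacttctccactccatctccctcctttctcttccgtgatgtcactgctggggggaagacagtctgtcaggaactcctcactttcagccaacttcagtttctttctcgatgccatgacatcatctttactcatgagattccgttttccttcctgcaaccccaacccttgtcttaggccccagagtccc

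*Ccl5* encodes RANTES, a ligand of CCR1 and CCR3 that is made by T and NK cells, platelets and macrophages. It lies on chromosome 11 at 83416602 to 83425942 on the minus strand. *Ccl5* was listed at 700, 210 and 644 scaled TPM when untreated and at 449, 138 and 465 in the LPS samples. The second sample was the lowest in each group and the groups overlapped. For *Ccl5* the log2 fold change was -0.57 (standard error 0.69, 95% interval -2.26 to 1.12, adjusted p = 0.66, limma), and changed sign to 0.06 with equal sums over all genes and to 0.00374 without the second LPS sample. The B cell markers summed to 1097, 282 and 1029 scaled TPM when untreated and to 807, 264 and 735 after LPS. While *Ccl5* varied 5.08-fold over the 6 samples, its ratio to the B cell sum stayed between 0.521 and 0.745, a 1.43-fold range. Against the other 8 marker lists the ratio varied from 2.02-fold (T or NK cells) to 97.6-fold (erythroid cells), and 28.1-fold for neutrophils. This comparison was chosen after the values were seen, and the part of B cells or other lymphocytes in the *Ccl5* level was not tested. The upstream 250 bases of the canonical *Ccl5* transcript (GRCm39, chr11:83421346-83421595, minus strand) are shown for the κB match GGAAACTCCC, 89 to 80 bases before the start, and the TATA box at 31 to 26 bases, both in capitals.
*Ccl5* upstream: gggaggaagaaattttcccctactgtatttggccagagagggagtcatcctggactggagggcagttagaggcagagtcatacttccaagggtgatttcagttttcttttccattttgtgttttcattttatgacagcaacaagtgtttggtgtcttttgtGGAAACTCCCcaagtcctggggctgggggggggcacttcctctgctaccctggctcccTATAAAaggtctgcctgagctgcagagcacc

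**Figure D3:**
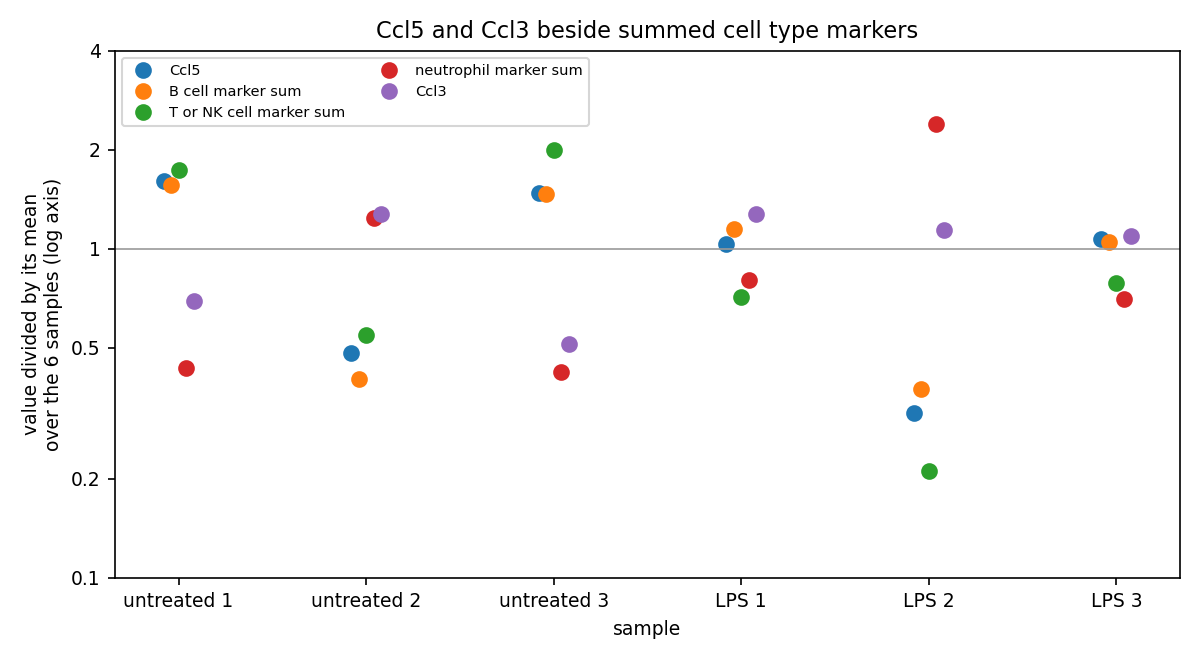
Scaled TPM of *Ccl5* and *Ccl3* and the summed scaled TPM of 3 marker lists in each sample, each divided by its own mean over the 6 samples (vertical axis, logarithmic). *Ccl5* and the B cell sum lie together in every sample, low in both second samples, whereas the neutrophil sum is highest in those samples.

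*Ccl6* and *Ccl9*, neighbours on the minus strand of chromosome 11 at 83478708 to 83483913 and 83463745 to 83473161, encode CCR1 ligands that are found in rodents and are made by resting myeloid cells. *Ccl6* was listed at 282, 177 and 262 scaled TPM when untreated and at 100.5, 56.1 and 143 after LPS. All 3 LPS samples were below all untreated ones, with means of 240.2 ± 55.8 and 99.8 ± 43.3 (SD, n = 3). *Ccl6* differed by -1.33 on the log2 scale (standard error 0.43, 95% interval -2.38 to -0.28), and neither limit was passed (adjusted p = 0.19, limma). It was negative in all 18 alternatives, from -1.83 with equal protein-coding sums to -0.71 with equal sums over all genes, and was called in none of them, with adjusted p values of 0.11 to 0.47. The T or NK cell markers summed to 133, 41.9 and 153 scaled TPM when untreated and to 54.5, 16.2 and 60.3 with LPS, so that this sum was also lower in the mean after LPS and lowest in the second sample of each group. The ratio of *Ccl6* to this sum varied 2.47-fold over the 6 samples, against 5.03-fold for *Ccl6* itself. Against the other marker lists the ratio varied from 4.30-fold (eosinophils) to 268-fold (erythroid cells), and 27.8-fold for neutrophils. The largest part of the sum in each sample was *Trbc2*. The means of *Cd2*, *Cd8a*, *Klrb1c*, *Ncr1* and *Nkg7* were higher after LPS and those of the other T or NK cell markers lower. This comparison was chosen after the values were seen, and the part of T or NK cells in the *Ccl6* values was not tested.

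*Ccl9* was listed at 111, 39.7 and 17.2 scaled TPM when untreated and at 68.9, 18.3 and 70.7 after LPS. The groups overlapped over nearly their whole range. *Ccl9* differed by 0.07 on the log2 scale (standard error 0.83, 95% interval -1.96 to 2.11, adjusted p = 0.97, limma), and its sign turned in 5 of 18 alternatives. Stretches of up to 158 bases of the *Ccl9* transcript match 6 other annotated genes at 95% identity or more, so that its level is less certain. The ratio of *Ccl6* to *Ccl9* was 2.54, 4.46 and 15.2 when untreated and 1.46, 3.06 and 2.02 with LPS, and the groups overlapped.

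*Ccl22* and *Ccl17* encode the ligands of CCR4, which attract helper and regulatory T cells and are typical products of dendritic cells and activated macrophages. They lie on the plus strand of chromosome 8 at 95471226 to 95478327 and 95534358 to 95538664. *Ccl22* was listed at 20.3, 0.151 and 15.3 scaled TPM when untreated and at 50.9, 23.0 and 79.5 after LPS. The LPS samples were all above the untreated ones, the lowest by a narrow margin, and the second sample was the lowest in each group. For *Ccl22* the log2 fold change was 2.66 (standard error 1.19, 95% interval -0.25 to 5.56, adjusted p = 0.32, limma). It was 1.32 without the second untreated sample and 1.79 without both second samples, where the unadjusted p was 0.0089 (adjusted p = 0.12, and 0.12 to 0.63 over all alternatives). The dendritic cell markers summed to 37.5, 15.9 and 33.6 scaled TPM when untreated and to 68.6, 36.6 and 56.5 after LPS. The second sample was again the lowest in each group. Most of this sum was *Itgax*, at 32.4, 13.8 and 26.6 when untreated and 63.9, 34.1 and 51.7 after LPS. No other marker of the list was above 4.13 (*Xcr1*) in any sample. The ratio of *Ccl22* to the sum varied 147-fold, against 525-fold for *Ccl22* itself. Against the other marker lists the ratio varied from 51.4-fold (erythroid cells) to 923-fold (neutrophils), and 201-fold for B cells. The dendritic cell list was thus not the one with the narrowest range. The part of dendritic cells in the *Ccl22* values was not tested.

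*Ccl17* was listed at 0, 0 and 22.2 scaled TPM when untreated and at 1.25, 1.03 and 2.71 in the LPS samples. A single untreated sample held the highest value while the other two were listed at 0. The log2 fold change of *Ccl17* was -0.15 (standard error 1.27, 95% interval -3.26 to 2.96, adjusted p = 0.96, limma), and 1.36 without the third untreated sample (adjusted p = 0.16, and 0.16 to 1 over all alternatives).

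The order of the mean levels was *Ccl3*, *Ccl5*, *Ccl4*, *Ccl6*, *Ccl9*, *Ccl22*, *Ccl17*, *Ccl2*, *Ccl7* and *Ccl12* in the untreated samples. In that group *Ccl3* was above *Ccl5*, and *Ccl6* above *Ccl9*, without overlap of their samples, while all other neighbours in the order overlapped. After LPS the order was *Ccl3*, *Ccl4*, *Ccl5*, *Ccl6*, *Ccl9*, *Ccl22*, *Ccl7*, *Ccl2*, *Ccl17* and *Ccl12*. Here *Ccl3* was above *Ccl4*, *Ccl4* above *Ccl5*, *Ccl22* above *Ccl7*, *Ccl2* above *Ccl17* and *Ccl17* above *Ccl12* without overlap. If a value is an average over annotated transcripts, as it was read here, a gene with several weak transcripts stands lower in such an order. The genes whose log2 values followed *Ccl3* most closely over the 6 samples were *Rabgef1* (Pearson's r = 0.99), the immunoglobulin gene *Igkv4-57* (0.99) and *Ccdc59* (0.99), and 86 of 23039 genes compared had a correlation above 0.95 with it. With 6 samples in 2 groups this is a description of likeness only.

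Of 16 other ligand genes of the CC, XC and CX3C families, 15 were in the table and 7 were listed at 0 in all samples, namely *Ccl19*, *Ccl20*, *Ccl21a*, *Ccl21b*, *Ccl21d*, *Ccl26* and *Ccl27b*. None of the 8 that were tested was called in either direction (0 higher and 0 lower by limma, against 1.69% and 1.31% of all genes). At an unadjusted p under 0.05 there were also 0, against 10.3% higher and 6.66% lower over all genes, and with 8 genes such shares allow no reading of these counts. *Ccl24* encodes an eosinophil-attracting ligand of CCR3 and is named after its values were seen. *Ccl24* was listed at 43.0, 2.85 and 4.42 scaled TPM when untreated and at 15.7, 4.81 and 8.45 after LPS (adjusted p = 1, limma).

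Among the receptor genes, *Ccr1*, which encodes the receptor shared by the products of *Ccl3*, *Ccl5*, *Ccl6*, *Ccl7* and *Ccl9*, was the 1 of 15 tested that passed the limits, and it was lower (1.31% of all genes were called lower). *Ccr1* was listed at 341, 258 and 268 scaled TPM when untreated and at 32.2, 57.9 and 41.4 in the LPS samples. The groups were far apart, at 289 ± 45.6 and 43.8 ± 13 (SD, n = 3), a 6.60-fold lower mean after LPS. The log2 fold change of *Ccr1* was -2.72 (standard error 0.33, adjusted p = 0.022, limma), and the gene was called in all 18 alternatives, with values from -3.22 to -2.10. Its adjusted p ran from 0.0096 to 0.15 over the alternatives and was under 0.05 without the second untreated sample (0.041) but in no other fit of 5 samples (0.053 to 0.15). No receptor gene was called higher (0 of 15, against 1.69% of all genes). At an unadjusted p under 0.05 by limma, *Ccr7* and *Ccr10* were higher, against 10.3% of all genes. *Ccr1*, *Ccr2* and *Ccr9* were among those lower at that limit, against 6.66%. *Ccr10* was near the floor, at 0 in every untreated sample and at 0.930, 0.425 and 0.818 scaled TPM after LPS. All 3 LPS samples were below the untreated ones in 5 receptor genes and above them in 2, against 9.75% and 13.1% of all genes, and the median log2 fold change of the list was -0.30.

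The other receptor genes described here were named after their values were seen. *Ccr2*, the receptor gene for the *Ccl2*, *Ccl7* and *Ccl12* products, was listed at 9.75, 4.48 and 2.57 scaled TPM when untreated and at 1.68, 0.581 and 1.40 after LPS. The LPS samples were all below the untreated ones, with a log2 difference of -1.46 (standard error 0.50, adjusted p = 0.21). *Ccr7*, which guides dendritic cells and lymphocytes to lymph nodes, was listed at 27.1, 2.24 and 3.93 scaled TPM when untreated and at 104, 33.5 and 125 after LPS. Its difference of 3.33 on the log2 scale (standard error 0.94, adjusted p = 0.14, limma) missed the limits, and the gene was called in 5 of 18 alternatives. One of these left out the first untreated sample, where the value was 4.27. *Ccrl2*, a receptor-like gene of neutrophils and macrophages that does not signal through G proteins, was high in all samples, at 385, 419 and 238 scaled TPM when untreated and 547, 417 and 624 after LPS, and its groups overlapped (adjusted p = 0.41, limma). For *Ccr4*, the receptor gene of the *Ccl17* and *Ccl22* products, no sample was above 0.745 scaled TPM.

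**Figure D4:**
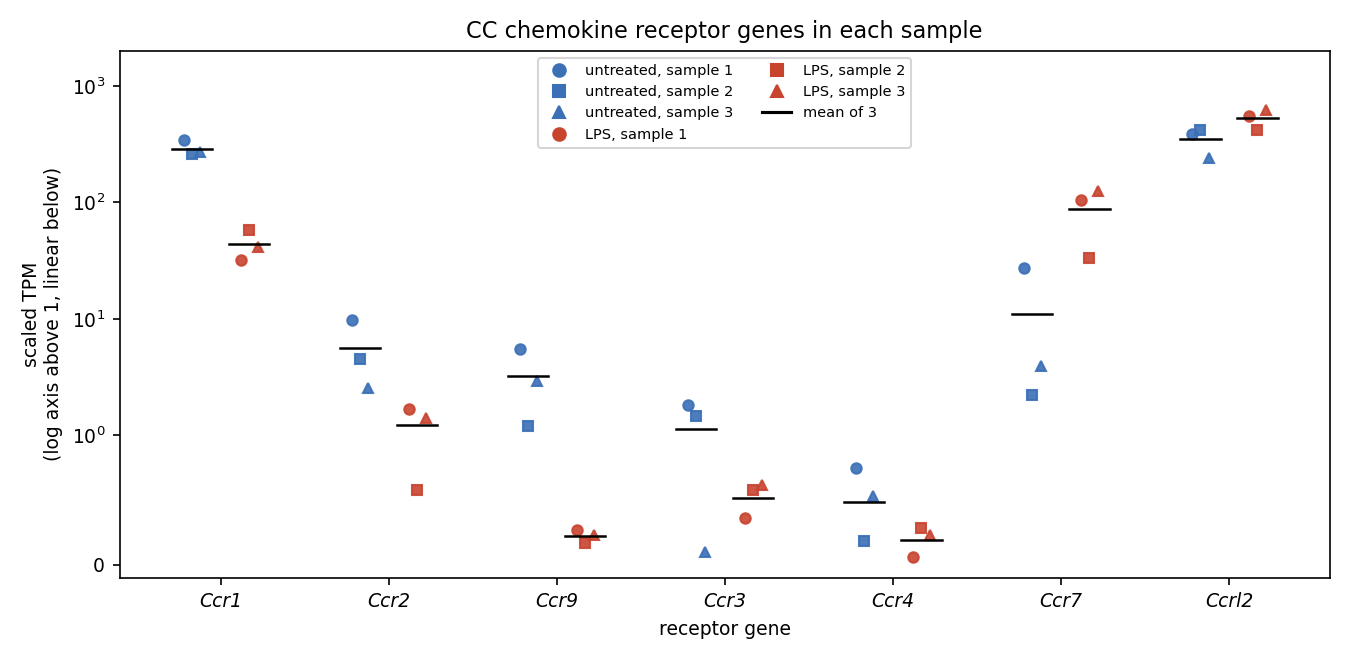
Scaled TPM (vertical axis, logarithmic above 1 and linear below) of 7 CC chemokine receptor genes in each untreated (blue) and LPS (red) sample, with the mean of 3 as a black line. *Ccr1* is at 258 to 341 in the untreated samples and at 32.2 to 57.9 after LPS, and *Ccr7* lies the other way, at 33.5 to 125 after LPS and 2.24 to 27.1 before.

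Of 31 genes between TLR4 and chemokine transcription 20 were in the table, and 5 were called higher and 0 lower by limma (1.69% and 1.31% of all genes). At an unadjusted p under 0.05, 0 of the 20 were lower, against 6.66% of all genes. Besides the 5 called, *Traf6*, *Nfkbia*, *Cebpb* and *Relb* were higher at that limit, against 10.3%. The 5 called higher were *Nfkbib*, an inhibitor of NF-κB, the AP-1 gene *Junb*, the NF-κB subunit genes *Nfkb1* and *Rel*, and *Map3k7*, the kinase TAK1. The median log2 fold change of the list was 1.06. *Nfkbib* was listed at 2.51, 4.20 and 5.33 scaled TPM when untreated and at 123, 115 and 129 after LPS, a log2 difference of 4.66 (standard error 0.32, adjusted p = 0.0057, limma). *Junb* was listed at 64.2, 92.6 and 55.1 scaled TPM when untreated and at 292, 553 and 409 after LPS, a log2 difference of 2.53 (standard error 0.37, adjusted p = 0.037). The groups did not overlap in either gene. *Tlr4* itself was listed at 7.30, 22.3 and 5.42 scaled TPM when untreated and at 6.41, 8.57 and 5.44 after LPS, and its groups overlapped (adjusted p = 0.64).

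Of 7 genes that regulate the decay of chemokine mRNA 5 were in the table, with 1 called higher and 0 lower by limma (1.69% and 1.31% of all genes). At an unadjusted p under 0.05, 0 of them were lower, against 6.66% of all genes. *Zc3h12a*, *Hnrnpd* and *Elavl1* were higher at that limit, against 10.3%. *Zc3h12a*, the nuclease Regnase that degrades inflammatory transcripts, was listed at 14.7, 37.8 and 40.1 scaled TPM when untreated and at 190, 295 and 245 after LPS. The groups were apart, with a log2 difference of 3.04 (standard error 0.46, adjusted p = 0.040, limma). *Zfp36*, the gene of tristetraprolin, which binds AU-rich elements, was listed at 109, 225 and 43.1 scaled TPM when untreated and at 142, 411 and 166 after LPS, and its groups overlapped (adjusted p = 0.52).

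**Figure D5:**
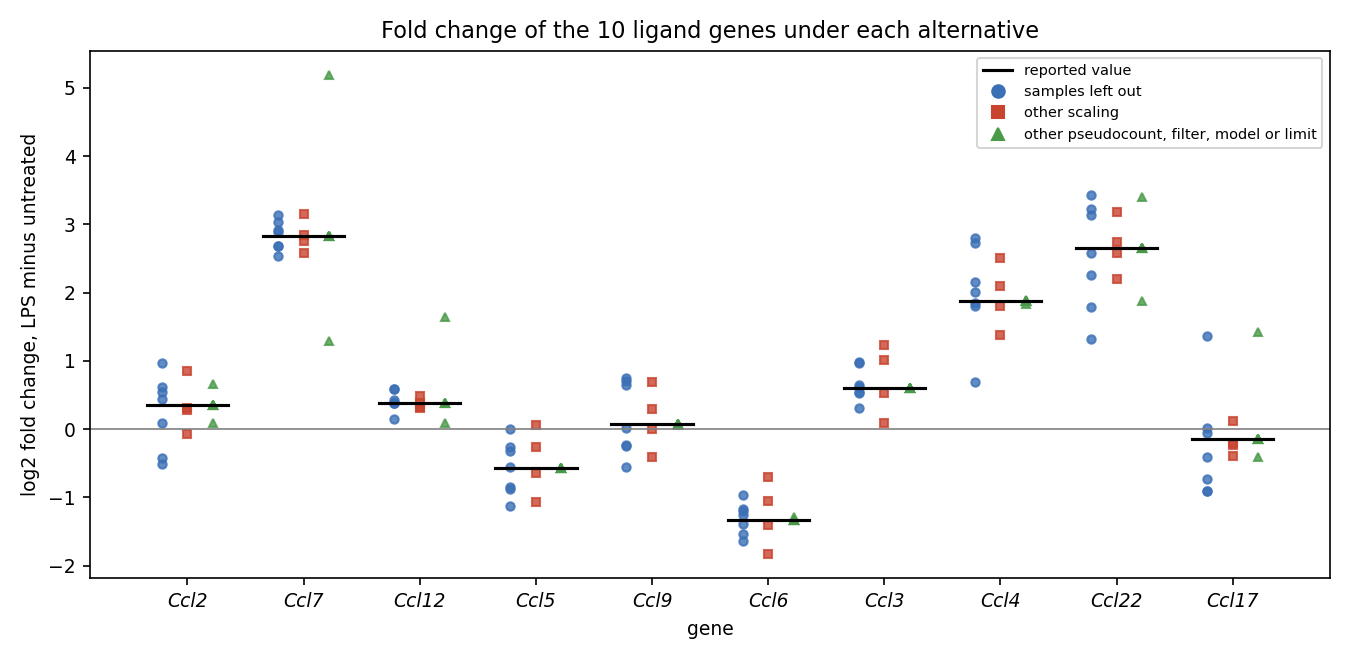
Log2 fold change (vertical axis) of the 10 ligand genes as reported (black line) and under 18 alternatives, with blue circles for fits without 1 or 2 samples, red squares for other scalings and green triangles for other pseudocounts, filters, models or limits. *Ccl7*, *Ccl22*, *Ccl4*, *Ccl3* and *Ccl12* stay above 0 and *Ccl6* stays below 0 in every alternative that gives a value, while *Ccl2*, *Ccl5*, *Ccl9* and *Ccl17* cross it.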

How the data were processed

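Total RNA of the 6 samples was sequenced by the authors from stranded mRNA libraries, and the labels and the paper name different Illumina sequencers. Per the processing notes and the methods, the authors used fastp for trimming, STAR for alignment to GRCm39, Kallisto for transcript abundance and edgeR for normalization. The notes also list mm10, and versions are not given in the sources used here. The deposited values, named normalized counts, were read as the mean TPM of each gene's annotated transcripts, with a common factor applied to each sample. In the third untreated sample 98.3% of 3959 genes with 1 annotated transcript had a value of at most 6 digits, as Kallisto writes it, against 40.7% of 1785 genes with 3, 7, 9 or 11 transcripts. When genes that reached at most 6 digits after multiplication by the number of transcripts were counted as well, the latter share was only 43.9%. The averaging was therefore not shown directly. Depth is unknown and no count test was run.

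After removal of 15690 genes with no value above 0, the other 23049 were fitted on the log2(value + 1) scale with limma 3.58.1 in R 4.3.3 (eBayes with a trend, two-sided, 3 against 3), with Benjamini-Hochberg adjustment over all of them. The scale understates the change of low genes. Genes were called at the limits of the study, a log2 fold change over 2 with an unadjusted p under 0.01, or at an adjusted p under 0.05. The members, lists and tests were chosen with earlier results of these data known. All 10 members are named. Of each further list up to 4 called genes with the largest change are named, and other names, *Rel* among them, were added after their values were seen. Positions and promoters were read from GENCODE M39 on GRCm39, and near-identical stretches (95% identity over 150 bases) were sought with blastn 2.17.0. Alternatives were other pseudocounts, filters, scalings, variance models and limits, a block by replicate number, and fits without 1 or 2 samples. The other limit, an adjusted p under 0.05, was read from the reported fit, so that its fold changes are the same. The alternatives without both second samples and with equal protein-coding sums were chosen after seeing the data. Results for 1 receptor gene are not reported here.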

Additional observations from a re-analysis of the deposited data

How the results depend on the processing

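*Ccl7* was called higher and no ligand gene lower (0 by limma) in all alternatives but a pseudocount of 5, where 0 were called higher and *Ccl7* had a log2 fold change of 1.29. Over all genes, 389 were higher and 301 lower. These counts became 856 and 493 with a pseudocount of 0.1, 129 and 168 with 5, 794 and 146 with equal sums over all genes and 221 and 524 with equal protein-coding sums, and 206 were higher at an adjusted p under 0.05. Equal sums over all genes moved the median log2 fold change of genes with a mean value of 1 or more by 0.44 and equal protein-coding sums by -0.35. The sign reversed for *Ccl17* with a pseudocount of 0.1 (1.42), equal sums (0.12), without the third untreated sample (1.36) and without the second LPS sample (0.02, range without each sample -0.91 to 1.36). It reversed for *Ccl5* with equal sums (0.056) and without the second LPS sample (0.0037, range -1.13 to 0.0037), and for *Ccl2* without the second untreated sample (-0.52, range -0.52 to 0.97), both second samples (-0.43) and with equal protein-coding sums (-0.067). For *Ccl9* it reversed with median centring (-0.0027), equal protein-coding sums (-0.41), and without the third untreated sample (-0.56), the first LPS sample (-0.23) and the third LPS sample (-0.25), with a range of -0.56 to 0.76. Receptor genes called higher were 1 with a pseudocount of 0.1 (*Ccr10*) and 1 (*Ccr7*) with a filter on the mean, equal sums, median centring or the block, and 0 to 1 without each sample, the 1 coming without the first untreated sample. Receptor genes called lower were 3 with a pseudocount of 0.1, 2 with equal protein-coding sums, 2 without both second samples and 1 to 2 without each sample, the 2 coming without the second untreated sample. Genes between TLR4 and transcription called higher were 3 with a pseudocount of 5, 9 with equal sums and 3 with equal protein-coding sums. The cause of these shifts was not tested. Same-numbered samples deviated together by correlations of 0.10, 0.22 and 0.09, each the best match of its sample, which is a hint from the data and not a pairing in the design. With the replicate block 387 genes were higher and 303 lower, *Ccl7* and *Ccr1* kept their calls (adjusted p = 0.092 for each), and the block changed the call of no other ligand gene. The block lowered the unadjusted limma p from 0.021 to 0.0071 for *Ccl6*, from 0.067 to 0.016 for *Ccl22* and from 0.44 to 0.042 for *Ccl5*. Their adjusted p values with it were 0.17, 0.22 and 0.31. For the ligand genes besides these and *Ccl7* the unadjusted p stayed above 0.05. Depth is unknown, so values near 0 have no lowest detectable level.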
